A study of Mus musculus with 10 samples.

Results

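The expression of 10 genes of defence against electrophiles and reactive oxygen was measured in bulk RNA of mouse lung. The genes are 6 glutathione S-transferases (Gsta3, Gsta4, Gstm1, Gstp1, Gsto1 and Mgst1), the glutathione peroxidases Gpx1 and Gpx3, the catalase gene Cat and the extracellular superoxide dismutase gene Sod3. They were chosen by symbol, as 10 of the 33347 genes in the deposited count table. Each lung came from a wild-type (WT) mouse given bleomycin, a drug that damages DNA and is used to bring on lung fibrosis. In the ALDHbr group (n = 5) the mice were also injected with bone marrow cells of high aldehyde dehydrogenase activity, and in the ALDHdim group (n = 5) with marrow cells of low activity. The sources used here do not give the strain, age or sex of the mice, the number of cells, or the time between bleomycin, cells and sampling. Bleomycin was common to both groups, and no lung without bleomycin or without transferred cells was analysed here. The replicates are numbered 1 to 5 in each group, and nothing says that each is another mouse, so the tests set differences against a spread between samples that may be technical.

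Glutathione is a small thiol that cells use against reactive molecules. Transferases join it to electrophiles such as products of lipid oxidation, and peroxidases spend it to reduce hydrogen peroxide and lipid peroxides. Dismutases turn superoxide into hydrogen peroxide, and catalase breaks hydrogen peroxide down in peroxisomes. In the lung, these enzymes are made by airway and alveolar epithelium, macrophages, endothelium and stroma in different mixtures, and bleomycin itself forms oxygen radicals when it is bound to iron.

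The libraries held 588063 to 2002947 counts, and the 10 genes together took 0.312% to 0.498% of them. A level is given as CPM, a gene's counts divided by the scaled total of its library. The libraries were made by a method that reads the 3′ end of each RNA, so a count does not grow with transcript length and was not divided by it. Lung epithelial markers were abundant in each library: 8 club and secretory airway markers summed to between 21059.6 and 66683 CPM in the ALDHbr libraries, against 20027 to 50693 CPM in the ALDHdim libraries. A pair of libraries stood apart in the markers of recruited macrophages, which summed to 413 CPM in ALDHbr 2 and to 329 CPM in ALDHdim 2, against 1295 to 4556 CPM in the other 8 libraries. ALDHbr 2 was also the library with the fewest counts and ALDHdim 2 the one with the most. When all libraries were thinned to the smallest total, ALDHbr 3 and ALDHbr 5 held 22807 and 21577 genes, above the 16228 to 18056 of the other libraries. Values without these libraries are given beside results that they moved strongly.

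Gpx3, which encodes a secreted peroxidase of plasma and extracellular fluid, had the highest level of the 10 genes, at 1185 ± 237 CPM (SD over 10 libraries). Mgst1, a transferase of the endoplasmic reticulum and outer mitochondrial membrane, followed at 661 ± 196 CPM, and Gpx1, the cytosolic peroxidase, at 572 ± 78.9 CPM. Gstm1 (mu class) was at 385 ± 169 CPM, Sod3 at 360 ± 90.8 CPM, Gsto1 (omega class, which also reduces dehydroascorbate) at 330 ± 73.0 CPM, Gsta3 (alpha class) at 240 ± 119 CPM and Cat at 219 ± 71.9 CPM. Gsta4, the alpha-class enzyme that favours 4-hydroxynonenal, a product of lipid oxidation, was at 128 ± 29.6 CPM. Gstp1 (pi class) was lowest, at 14.4 ± 6.75 CPM from 174 counts in all. In this order, the steps from Gpx3 to Mgst1, Gpx1 to Gstm1, Cat to Gsta4 and Gsta4 to Gstp1 exceeded the larger SD of the neighbouring pair. The other neighbours differed by less than that SD.

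Positions are those of whole genes on GRCm38. The alpha-class genes lie apart, Gsta3 at chr1:21240589-21265661 and Gsta4 at chr9:78182774-78209349, both on the plus strand. Gstm1 is at chr3:108012255-108017973 on the minus strand, and Gstp1 (chr19:4035407-4037985, minus strand) and Gsto1 (chr19:47854970-47864790, plus strand) share a chromosome. Mgst1 is at chr6:138140316-138156755, Gpx1 at chr9:108338903-108340343, Gpx3 at chr11:54902453-54910377 and Sod3 at chr5:52363791-52371418, all on the plus strand. Cat is at chr2:103453849-103485160 on the minus strand.

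**Figure D1:**
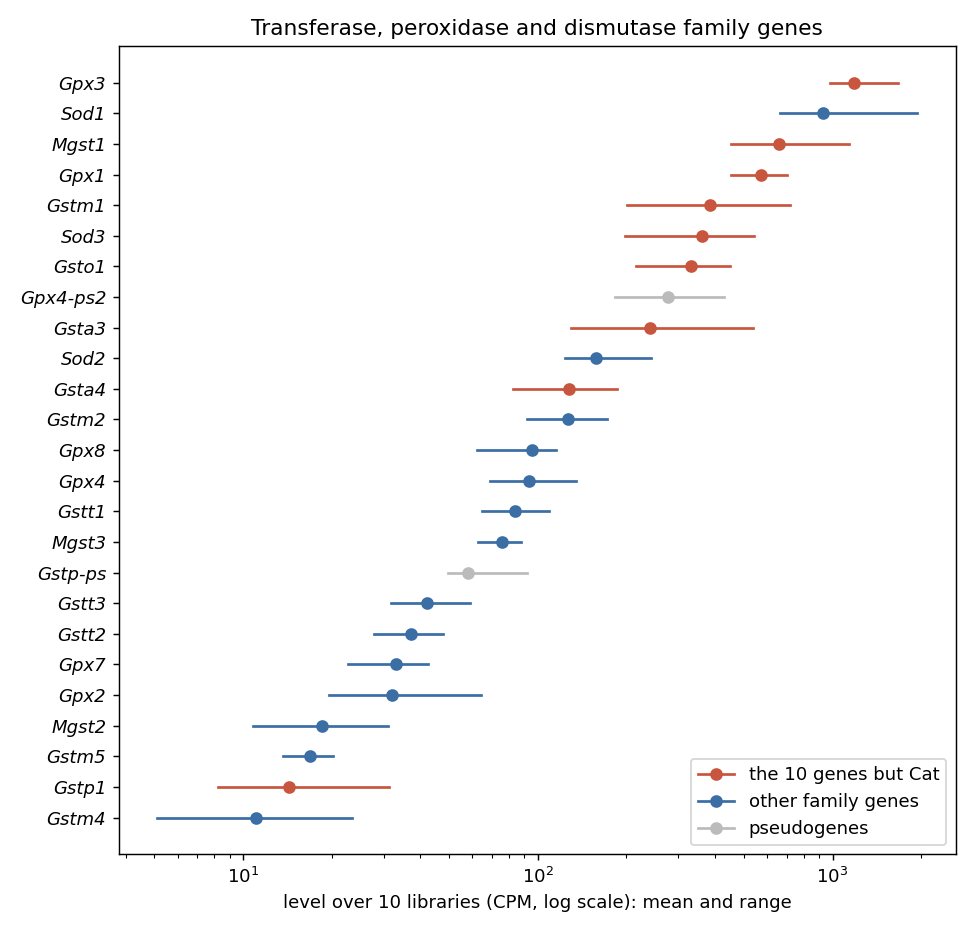
Mean level (point) and range over the 10 libraries (line) of each tested gene of the transferase, peroxidase and dismutase families, in CPM on a log axis, with 9 of the 10 genes (Cat belongs to none of these families) in red, other genes in blue and pseudogenes in grey. Gpx3 is highest with a mean of 1185 CPM, Gstp1 is at 14.4 CPM, and the pseudogenes Gstp-ps and Gpx4-ps2 lie above the genes they resemble.

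Among family relatives outside the 10 genes, Sod1, the cytosolic copper and zinc dismutase, was at 928 ± 378 CPM, and Sod2, the mitochondrial manganese dismutase, at 157 ± 31.7 CPM. Here too the error is the SD over 10 libraries. Gstm2 was at 127 ± 23.9 CPM and Gpx8 at 95.2 CPM. Of the genes whose names place them in the transferase, peroxidase and dismutase families, those with too few counts to test included Gsta1, Gsta2, Gstm3, Gstm6, Gstm7, Gstp2, Gstp3, Gsto2, Gpx5 and Gstt4, each at a mean of 6.22 CPM or lower.

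The level of Gstp1 depends on where its reads were placed. Gstp-ps, a processed pseudogene at chr1:192073820-192074450 (minus strand), held 717 counts and Gstp1 174. In each library, 74.6% to 88.4% of the sum of both was assigned to the pseudogene. Of the 81-base windows in the last 500 bases of annotated Gstp1 transcripts, 32.5% also occurred in transcripts of Gstp2 or Gstp-ps, and for Gstp-ps the shared proportion was 73.8%. The sources used here do not give how reads with several matches were counted, so the split between them is uncertain. With both summed, the level was 72.4 ± 18.6 CPM (SD, n = 10). A like pair exists for Gpx4, the peroxidase of membrane phospholipids: Gpx4 held 1142 counts and the pseudogene Gpx4-ps2 held 3291, with 48.7% of the Gpx4 windows shared. Of the remaining genes, Gstm1 shared 14.5% of its windows with Gm8834, Gstm3 or Gstm2-ps1, and the other 8 shared 0%. Only annotated transcripts were searched. Gsto1 overlaps Cfap43 on the opposite strand, which held 602 counts, and Gsta3 overlaps Gm28836, with 3 counts. The sources used here do not give whether counting used strand, so these pairs are uncertain to that extent.

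The comparison of ALDHbr with ALDHdim recipients asks whether the kind of marrow cell given was followed by another level of these genes in the injured lung. None of the 10 genes passed the threshold (adjusted p under 0.05, edgeR's quasi-likelihood test with Benjamini-Hochberg adjustment). The count was 0 of 10, and over all 10844 genes tested it was 0 (0%). The smallest adjusted p was 0.999 both among the 10 genes and among all genes tested. At an unadjusted p under 0.05 there were 0 of the 10 genes in either direction, against 3.71% of all genes tested (2.13% higher and 1.58% lower). DESeq2 also called 0 genes, with 1465 of 33347 at that unadjusted level, and limma-voom 0, with 690 of 10844. In limma-voom, 1 of the 10 genes, Gpx1, was at that level (unadjusted p = 0.0431, adjusted p = 0.756, limma). In each of the 10 genes the libraries of the groups overlapped, while 0.535% of all tested genes had groups that did not overlap (0.286% lower in ALDHbr). The estimates were above 0 for 5 genes and below 0 for 5, against 48.1% of all tested genes below 0, with a median log2 fold change of −0.04, against 0.01 over all genes tested. This split moved with the setting. Below 0 were 8 of the 10 genes with limma-voom (median −0.15) and 8 without ALDHbr 2 (median −0.28). Without both ALDHbr 3 and ALDHbr 5 there were 3 (median 0.12). Each 95% interval lay within 2-fold in either direction. Summed, the 10 genes stood at 4139 ± 996 CPM in the ALDHbr lungs, against 4050.0 ± 399.6 CPM in the ALDHdim lungs (SD, n = 5 each).

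**Figure D2:**
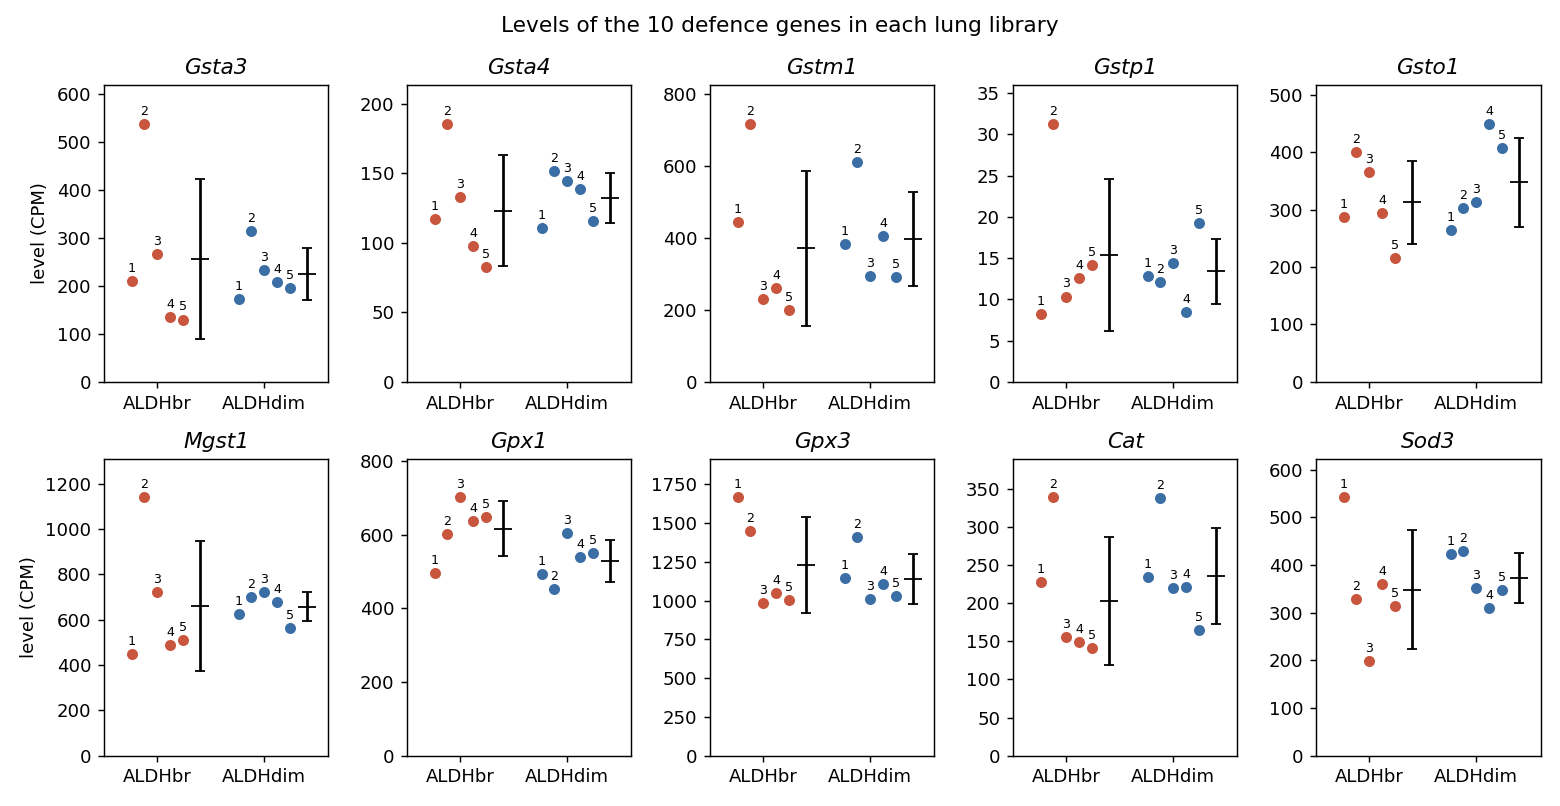
Level (CPM) of each of the 10 genes in the 5 ALDHbr libraries (red) and the 5 ALDHdim libraries (blue), with the replicate number above each point and the group mean ± SD as a bar. The groups overlap in every panel, and ALDHbr 2 is highest of its group for 7 genes.

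The alpha-class transferases had a wide spread in ALDHbr recipients. Gsta3 was at 211, 538, 266, 135 and 129.95 CPM in ALDHbr libraries 1 to 5, against 172, 314, 234, 208 and 195 CPM in ALDHdim libraries 1 to 5. Library 2 was highest in both groups, and the lowest levels were those of ALDHbr 4 and 5. The log2 fold change was 0.15 (SE 0.37, unadjusted p = 0.681, edgeR), and without ALDHbr 2 it was −0.29. Gsta4 was at 117, 186, 133, 97.6 and 82.5 CPM in the ALDHbr libraries, against 111, 152, 145, 139 and 116 CPM in the ALDHdim libraries. The ALDHbr values enclosed those of the ALDHdim group, with a log2 fold change of −0.14 (SE 0.18, unadjusted p = 0.469, edgeR). It was −0.31 without ALDHbr 2 (unadjusted p = 0.0609, edgeR) and −0.016 without ALDHbr 5.

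The mu, pi, omega and microsomal transferases overlapped between the groups as well. Gstm1, which conjugates many epoxides and quinones, was at 445, 718, 232, 261 and 201 CPM in the ALDHbr libraries, against 383, 612, 295, 407 and 292 CPM in the ALDHdim libraries. Library 2 was again highest in both groups, and the log2 fold change was −0.12 (SE 0.35, unadjusted p = 0.748, edgeR). Without ALDHbr 2 the log2 fold change of Gstm1 was −0.48, and without ALDHdim 2 its sign turned, to 0.098. Gstp1 averaged 15.3 ± 9.21 CPM in the ALDHbr lungs, against 13.4 ± 3.94 CPM in the ALDHdim lungs (SD, n = 5 each), and its 31.3 CPM in ALDHbr 2 rests on 16 counts. Summed with its pseudogene it averaged 76.0 ± 26.8 CPM in the ALDHbr lungs, against 68.8 ± 5.30 CPM in the ALDHdim lungs. Gsto1 ranged from 216 to 401 CPM in ALDHbr and from 265 to 450 CPM in ALDHdim libraries, a log2 fold change of −0.16 (SE 0.18), or −0.27 without ALDHbr 2 and −0.049 without ALDHbr 5. Mgst1 ranged from 451 to 1140.3 CPM in ALDHbr and from 565 to 722 CPM in ALDHdim libraries, with nearly equal means of 663 and 658 CPM. Without ALDHbr 2 the log2 fold change of Mgst1 was −0.29 (unadjusted p = 0.0806, edgeR), against 0.0027 with it.

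Among the enzymes that remove peroxide, Gpx1 had the smallest p of the 10 genes. It was at 497, 600.5, 701, 636 and 648 CPM in ALDHbr libraries 1 to 5, against 492, 453, 604, 541 and 549.9 CPM in ALDHdim libraries 1 to 5. ALDHbr 3, 4 and 5 lay above all ALDHdim libraries and ALDHbr 1 and 2 among them. The log2 fold change was 0.22 (SE 0.14, 95% interval −0.07 to 0.51, unadjusted p = 0.121, edgeR). It was 0.29 without ALDHbr 1 (unadjusted p = 0.0275, adjusted p = 0.419, edgeR) and 0.13 without both ALDHbr 3 and ALDHbr 5 (unadjusted p = 0.438). Gpx3 was at 1666, 1449, 982, 1046 and 1006 CPM in the ALDHbr libraries, against 1148, 1410.0, 1014, 1106 and 1027 CPM in the ALDHdim libraries. ALDHbr 1 and 2 and ALDHdim 2 were high and the other 7 close together, with a log2 fold change of 0.11 (SE 0.18), or −0.029 without ALDHbr 1. Cat was at 228, 338, 155, 149 and 142 CPM in the ALDHbr libraries, against 234, 337, 219, 221 and 165 CPM in the ALDHdim libraries. Library 2 was highest in both groups at nearly the same level, and ALDHbr 3, 4 and 5 lay below all ALDHdim libraries. Its log2 fold change was −0.24 (SE 0.25, unadjusted p = 0.350, edgeR). Without ALDHbr 2 it was −0.48 (unadjusted p = 0.0284, adjusted p = 0.9997, edgeR), and without ALDHdim 2 it was −0.067. Without both ALDHbr 3 and ALDHbr 5 it was −0.0010 (unadjusted p = 0.997, edgeR).

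Sod3 encodes the secreted dismutase that binds heparan sulphate in the matrix of vessels and airways. It was at 542, 329, 198, 359.5 and 314 CPM in the ALDHbr libraries, against 424, 429, 351, 309.9 and 347 CPM in the ALDHdim libraries. The highest and the lowest level of all 10 libraries were both in the ALDHbr group, in ALDHbr 1 and ALDHbr 3. The log2 fold change was −0.09 (SE 0.20, unadjusted p = 0.668, edgeR), and 0.060 without ALDHbr 3. With ALDHbr 2 and ALDHdim 2 both left out, 8 of the 10 genes had estimates below 0, their median log2 fold change was −0.25 against 0.01 over all genes, and the smallest p was 0.0871 before adjustment, that of Cat (log2 fold change −0.31). In that comparison 0 genes of the whole table passed in edgeR, with 364 of 10925 at an unadjusted p under 0.05.

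**Figure D3:**
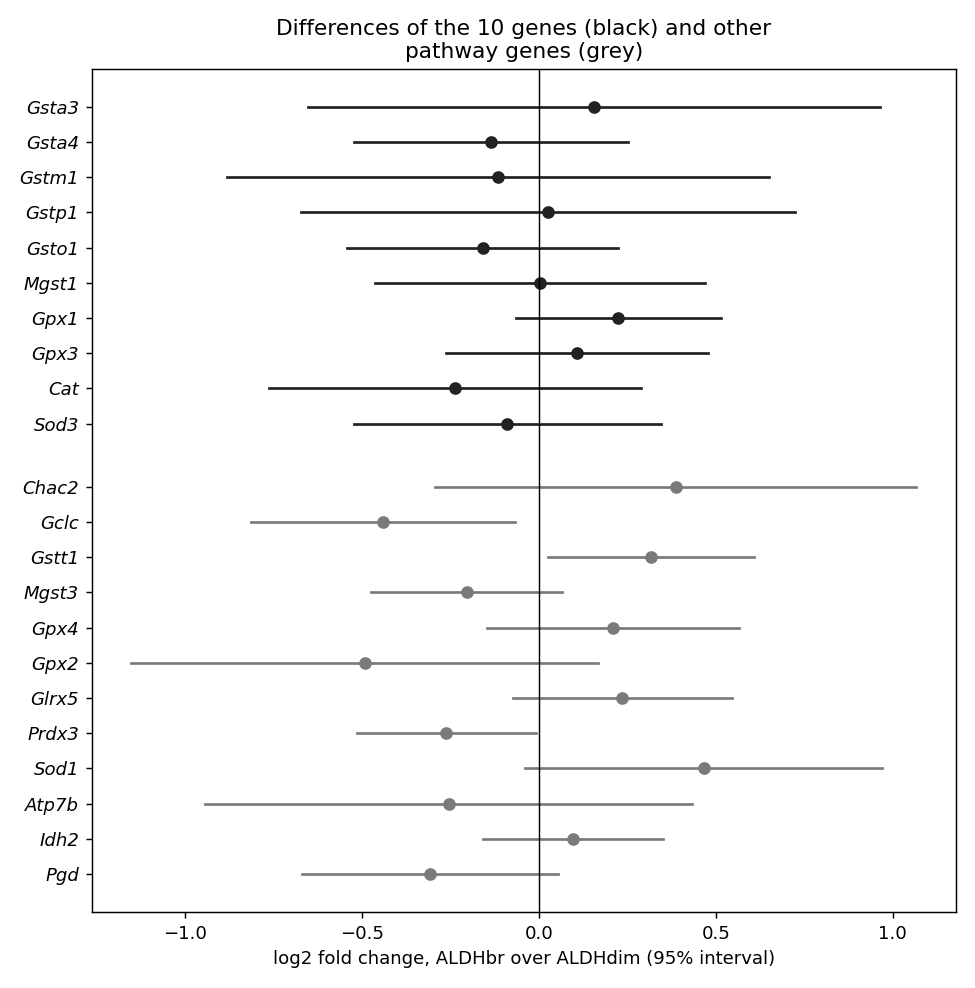
Log2 fold change, ALDHbr over ALDHdim, with its 95% interval from edgeR, for the 10 genes (black) and for 12 other genes of the pathway (grey). Every interval of the 10 genes includes 0, with Gpx1 at 0.22 and Cat at −0.24 the farthest from it.

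Other genes of glutathione use, peroxide removal and reducing power were read from 6 lists with 81 entries, of which 62 were tested. None passed the threshold in edgeR (0 of 62), 27 estimates were above and 35 below 0, and the median log2 fold change was −0.03. At an unadjusted p under 0.05 there were 3 of 62, Gclc, Gstt1 and Prdx3, where 3.71% of all tested genes met that level, a proportion close to that in these lists. Gclc, the catalytic subunit of the ligase that limits glutathione synthesis, was at 212, 184, 203, 214 and 182 CPM in the ALDHbr libraries, against 267, 179.6, 208, 369 and 331 CPM in the ALDHdim libraries. ALDHdim 4 and 5 were highest, while ALDHdim 2 lay below all ALDHbr libraries. The log2 fold change was −0.44 (SE 0.18, unadjusted p = 0.0230, adjusted p = 0.999, edgeR). Chac2, which degrades glutathione, had the smallest p of the higher genes in the list of synthesis and recycling, with 5 of 10 tested genes above and 5 below 0, and differed by 0.39 (SE 0.32).

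Of 11 other transferases tested, 5 had estimates above and 6 below 0. Gstt1 (theta class) averaged 93.8 ± 12.6 CPM in the ALDHbr lungs, against 74.2 ± 10.4 CPM in the ALDHdim lungs (log2 fold change 0.32, SE 0.14, unadjusted p = 0.0347, adjusted p = 0.999, edgeR). Mgst3, a microsomal relative of Mgst1, differed by −0.20 (SE 0.13). Among 4 other peroxidases, Gpx4 differed by 0.21 (SE 0.17) and Gpx2, a peroxidase of epithelium, by −0.49 (SE 0.31). Of 23 peroxiredoxin and thioredoxin genes, 9 had estimates above and 14 below 0. Prdx3, the mitochondrial peroxiredoxin, averaged 75.7 ± 6.05 CPM in the ALDHbr lungs, against 91.0 ± 7.19 CPM in the ALDHdim lungs (log2 fold change −0.26, SE 0.12, unadjusted p = 0.0434, adjusted p = 0.999, edgeR). Glrx5, a mitochondrial glutaredoxin of iron-sulphur cluster assembly, differed by 0.24 (SE 0.15).

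Sod1 had the second-highest mean of the families after Gpx3 and was at 811, 1942, 1106, 739 and 788 CPM in the ALDHbr libraries, against 709.9, 904, 875, 738 and 662 CPM in the ALDHdim libraries. Its log2 fold change was 0.47 (SE 0.24, unadjusted p = 0.0680, edgeR), and 0.14 without ALDHbr 2, whose level was the highest. Of 6 dismutase and copper delivery genes, 4 had estimates above and 2 below 0, and Atp7b, a copper-exporting ATPase, differed by −0.26 (SE 0.32). Of 8 genes that supply NADPH, 3 had estimates above and 5 below 0. Pgd, of the pentose phosphate pathway, differed by −0.31 (SE 0.17) and Idh2, of mitochondria, by 0.10 (SE 0.12).

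Across the 10 libraries, whatever the group, several of the 10 genes varied together. Their coefficient of variation ranged from 13.8% for Gpx1 to 49.3% for Gsta3, with a median of 27.4%, against 22.8% over all genes tested. Of the 45 pairs, 8 passed an adjusted permutation p of 0.05, 7 with positive and 1 with negative r. As a description, r was at least 0.8 in size in 5 of the 45 pairs (11.1%), against 1.82% of all pairs of tested genes, which were not matched for level. Gstm1 and Cat had the highest correlation (Pearson's r = 0.96, permutation p = 2.0e-05, adjusted p = 9.0e-04; Spearman's rho = 0.95, permutation p = 1.2e-04, adjusted p = 0.00495). Without ALDHbr 2 and ALDHdim 2, the libraries farthest from the median of Gstm1, r was 0.89. Gsta3 and Gsta4 followed (r = 0.94, permutation p = 1.0e-04, adjusted p = 0.00225; rho = 0.94, permutation p = 2.2e-04, adjusted p = 0.00495), with r = 0.90 when ALDHbr 2 and ALDHbr 5 were left out. Both pairs passed with any 1 library left out. With ALDHbr 2 and ALDHdim 2 both left out, 0 pairs passed, and these pairs had an adjusted exact permutation p of 0.0569 each. Gstm1 and Gpx3 (r = 0.82, adjusted permutation p = 0.031, and rho = 0.89, adjusted permutation p = 0.0162) kept r = 0.74 without ALDHbr 2 and ALDHdim 2.

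Mgst1 correlated with both alpha-class genes, with r = 0.86 for Gsta3 and 0.85 for Gsta4 (permutation p 0.00258 and 0.00275, each with an adjusted p of 0.0309). Their rho was 0.76 and 0.77, each with an adjusted permutation p of 0.0842. Without ALDHbr 2 and ALDHbr 5, r was 0.63 and 0.78. The negative pair was Gpx1 and Sod3 (r = −0.79, permutation p = 0.00483, adjusted p = 0.0362; rho = −0.67, permutation p = 0.0401, adjusted p = 0.148). Without ALDHdim 2 and ALDHbr 3 its r was −0.68. Gpx1 was lowest in ALDHdim 2, ALDHdim 1 and ALDHbr 1, the libraries in which Sod3 was highest. Gsta3, Gstm1 and Cat were each highest in ALDHbr 2, and ALDHdim 2 came next.

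Upstream sequence is given for Gsta3 and Mgst1. Among the 8 of the 10 genes with a promoter, they alone matched the searched form of the antioxidant response element core. That element is the site bound by the factor NRF2. RefSeq promoters of GRCm38.p6, from 250 bases before to 50 after each start, were found for 8 of the 10 genes (10 promoters). Gsta4 and Sod3 had none and could not be searched. Gsta4 correlated more with Gsta3 (r = 0.94) than Mgst1 did (r = 0.86). The core was searched on both strands as TGACNNNGC, where N is any base, and occurred in 2 of these 8 genes and in 14.0% of all 27025 genes with a promoter. With only 8 genes, 2 matches cannot be told apart from that share. Whether the matches bear on how the genes varied was not tested. Other forms of the core were not searched, so a gene without a match may still hold one. The 250 bases before the start are given 5′ to 3′ on the gene's strand, with the match in capitals. In Gsta3 the match begins at position −121 from the start on the gene's strand, and in Mgst1 at −56 on the opposite strand. The Gsta3 sequence is chr1:21240335-21240584 (plus strand) and the Mgst1 sequence chr6:138140277-138140526 (plus strand). A second Mgst1 promoter held no match. A match is a description of the letters, not of a bound site.
Gsta3: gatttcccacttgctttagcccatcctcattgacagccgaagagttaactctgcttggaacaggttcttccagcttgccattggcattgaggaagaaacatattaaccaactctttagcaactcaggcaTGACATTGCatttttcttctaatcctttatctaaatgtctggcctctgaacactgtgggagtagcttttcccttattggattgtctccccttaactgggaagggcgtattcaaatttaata
Mgst1: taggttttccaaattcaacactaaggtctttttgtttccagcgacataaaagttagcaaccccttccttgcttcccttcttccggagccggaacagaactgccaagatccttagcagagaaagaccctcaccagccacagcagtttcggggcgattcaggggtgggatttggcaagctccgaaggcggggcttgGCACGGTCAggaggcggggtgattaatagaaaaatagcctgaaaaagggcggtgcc

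To see which cells of the lung the genes varied with, each was correlated with the mean log2 level of 15 cell type marker lists, 150 relations in all. Of these, 18 passed an adjusted permutation p of 0.05, 14 with positive and 4 with negative r. By the same description, r was at least 0.8 in size in 14 of the 150 relations (9.33%), against 3.2% of the relations of all tested genes with these lists, each list's own genes left out. Here too the genes were not matched for level. In bulk tissue, fewer cells of a type and less RNA per cell cannot be told apart. The list scores also shared extremes. ALDHbr 2 was highest for the club and secretory, alveolar type 2, alveolar type 1, alveolar macrophage and adipocyte lists. ALDHbr 5 was lowest for the club and secretory, alveolar macrophage and adipocyte lists. Relations of a gene with several of these lists are therefore not separate evidence about each cell type. Cat, Gsta4, Gsta3 and Gstm1 had positive correlations with the club and secretory airway markers, among them Scgb1a1, Cyp2f2 and Cbr2. For Gsta4, r was 0.92 (permutation p = 2.6e-04, adjusted p = 0.0163; rho = 0.85, permutation p = 0.00278, adjusted p = 0.0596). For Cat, r was 0.90 (permutation p = 4.4e-04, adjusted p = 0.0163; rho = 0.87, permutation p = 0.002, adjusted p = 0.0572). Without ALDHbr 5 and ALDHbr 2, the libraries with the lowest and highest airway score, r was 0.79 for Gsta4 and 0.84 for Cat. Gsta3 had r = 0.89 (permutation p = 6.4e-04, adjusted p = 0.0163) and rho = 0.87 (adjusted permutation p = 0.0572), with r = 0.80 without the same libraries. Gstm1 had r = 0.82 (permutation p = 0.00405, adjusted p = 0.0433) and rho = 0.82 (adjusted permutation p = 0.0682), with r = 0.62 without them. Without ALDHbr 2 and ALDHdim 2, the airway r was 0.86 for Gsta4, 0.80 for Gsta3, 0.76 for Cat and 0.56 for Gstm1 (exact permutation p = 0.00749, 0.0177, 0.0235 and 0.15, each over 0.05 when adjusted).

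**Figure D4:**
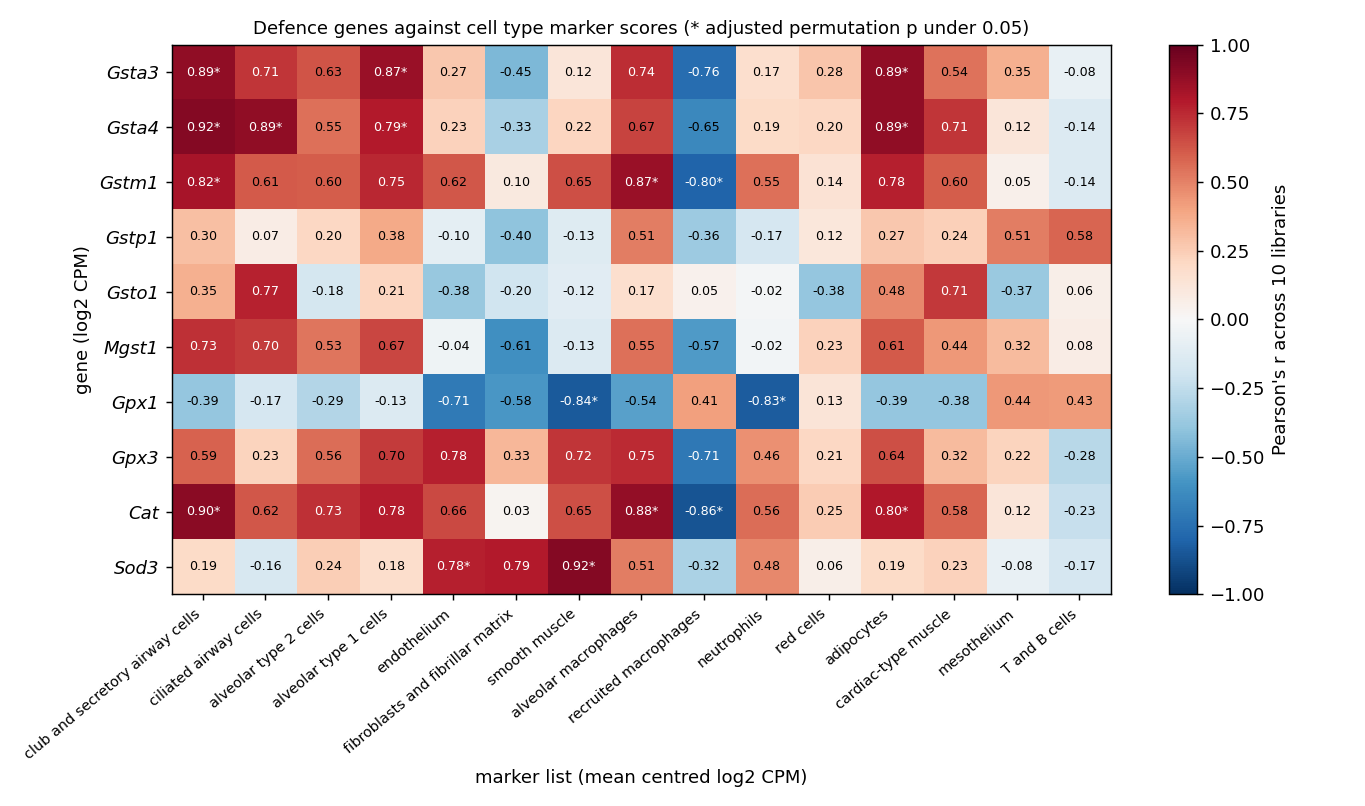
Pearson's r across the 10 libraries between the log2 CPM of each of the 10 genes (vertical) and the mean centred log2 CPM of each cell type marker list (horizontal). Asterisks mark the 18 relations with an adjusted permutation p under 0.05, among them Cat, Gsta3, Gsta4 and Gstm1 with airway markers and Sod3 with smooth muscle.

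Gsta4 also followed the ciliated airway markers, such as Foxj1 and Tppp3 (r = 0.89, permutation p = 5.5e-04, adjusted p = 0.0163; rho = 0.82, adjusted permutation p = 0.0682), with r = 0.91 when ALDHbr 5 and ALDHdim 4 were left out. Gsta3 (r = 0.87) and Gsta4 (r = 0.79) passed with the alveolar type 1 markers, with adjusted permutation p of 0.0211 and 0.0497. Without ALDHbr 2 and ALDHbr 1 these were 0.77 and 0.76, and without ALDHbr 2 and ALDHdim 2 they were 0.60 and 0.55 (exact permutation p = 0.116 and 0.155). Cat and Gstm1 correlated with alveolar macrophage markers such as Chil3 (r = 0.88 and 0.87, adjusted permutation p = 0.018 and 0.0209). Their rho was 0.95 and 0.92 (adjusted permutation p = 0.018 and 0.0285), so both passed by rho as well, unlike the airway relations. Without ALDHbr 2 and ALDHbr 5 their r was 0.78 and 0.72. Without ALDHbr 2 and ALDHdim 2 it was 0.79 and 0.72 (exact permutation p = 0.0295 and 0.059, each over 0.05 when adjusted). Both genes were high where recruited macrophage markers were low, in ALDHbr 2 and ALDHdim 2. These libraries form a cluster of their own on that measure, and among the other 8 r was −0.54 for Cat and −0.33 for Gstm1 (exact permutation p = 0.161 and 0.406). The adipocyte list, in which Cfd and Car3 averaged 182 and 173 CPM and the defining gene Adipoq 20.01 CPM, passed with Gsta3 (r = 0.89), Gsta4 (r = 0.89) and Cat (r = 0.80), with adjusted permutation p of 0.0163, 0.0172 and 0.0497. Without ALDHbr 5 and ALDHbr 2 these r were 0.88, 0.71 and 0.66. Without ALDHbr 2 and ALDHdim 2 they were 0.87, 0.81 and 0.59, each with an exact permutation p over 0.05 when adjusted. In the same order rho was 0.92, 0.83 and 0.76, and of these only Gsta3 passed by rho (adjusted permutation p = 0.0285). The adipocyte sum was 178 to 645 CPM in ALDHbr and 314 to 530.2 CPM in ALDHdim libraries, and its part in the levels was not tested.

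**Figure D5:**
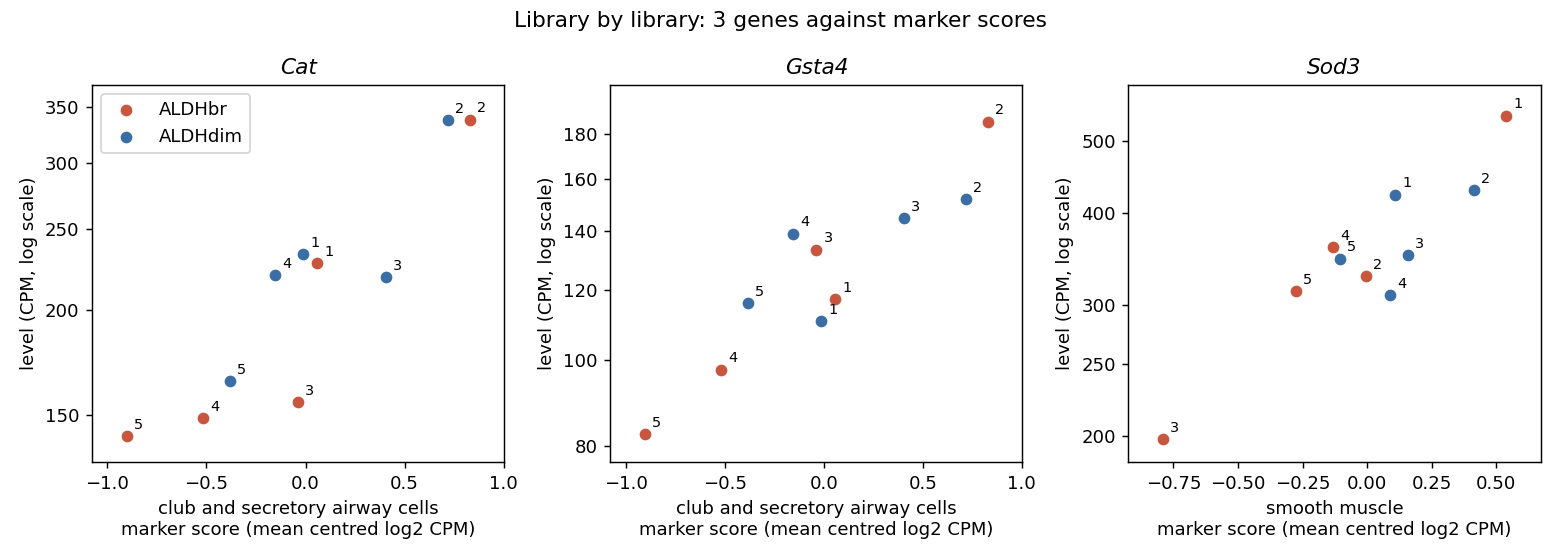
Level (CPM, log axis) of Cat and Gsta4 against the club and secretory airway score, and of Sod3 against the smooth muscle score, with a point per library and its replicate number, ALDHbr in red and ALDHdim in blue. Pearson's r is 0.90, 0.92 and 0.92 over the 10 libraries, and ALDHbr 2 and ALDHdim 2 lie at the upper right for Cat.

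Sod3 varied with smooth muscle and endothelial markers. With the fibroblast and fibrillar matrix list it did not pass (r = 0.79, adjusted permutation p = 0.0699, and rho = 0.41, adjusted permutation p = 0.511). That r was 0.046 without ALDHbr 3 and ALDHbr 1, and 0.93 without ALDHbr 2 and ALDHdim 2. With the smooth muscle list (Acta2, Myh11, Tagln, Cnn1, Des and Actg2) r was 0.92 (permutation p = 7.2e-04, adjusted p = 0.0163; rho = 0.76, permutation p = 0.015, adjusted p = 0.119). The smooth muscle r was 0.65 without ALDHbr 3 and ALDHbr 1, and was 0.92 without ALDHbr 2 and ALDHdim 2. With endothelial markers r was 0.78 (permutation p = 0.00433, adjusted p = 0.0433; rho = 0.87, permutation p = 0.00229, adjusted p = 0.0572), and 0.63 without ALDHdim 2 and ALDHbr 1. Gpx1 ran the other way, with r = −0.84 for smooth muscle (permutation p = 0.00153, adjusted p = 0.0209) and −0.83 for neutrophil markers (permutation p = 6.5e-04, adjusted p = 0.0163). For both lists rho was −0.82 (adjusted permutation p = 0.0682). Without ALDHbr 3 and ALDHbr 1 the smooth muscle value was −0.80, and without ALDHdim 2 and ALDHbr 3 the neutrophil value was −0.75. The neutrophil markers summed to between 129.8 and 272 CPM in the ALDHbr libraries, against 158 to 1034 CPM in the ALDHdim libraries, with ALDHdim 2 highest. Mgst1, Gsto1, Gpx3 and Gstp1 passed with 0 of the 15 lists.

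The number of relations past the threshold rested on few libraries. It was 0 without ALDHbr 2, 0 without ALDHbr 5, 0 without ALDHdim 2 and 2 without ALDHbr 4, against 18 with all libraries. In some relations the correlation itself moved less with 1 library left out. With the club and secretory list, r stayed between 0.86 and 0.95 for Cat and between 0.87 and 0.95 for Gsta4. For Sod3 with smooth muscle it stayed between 0.81 and 0.95. Other relations weakened further. With alveolar type 1 markers the weakest r was 0.65 for Gsta4 and 0.70 for Gsta3. It was 0.69 for Sod3 with endothelial markers and −0.69 for Gstm1 with recruited macrophage markers. None of 30 relations of the 10 genes with total counts, genes at equal depth or the mitochondrial proportion passed (0 of 30, smallest adjusted permutation p 0.217). Of these, 6 had an unadjusted p under 0.05, among them Gpx1 with genes at equal depth (r = 0.73, permutation p = 0.0102, adjusted p = 0.217, with rho = 0.67), which was 0.45 without ALDHbr 3 and ALDHbr 5. Sod3 went the other way with the same measure (r = −0.71, permutation p = 0.022, adjusted p = 0.217, with rho = −0.39), and its r was −0.03 without them. With the mitochondrial proportion Sod3 had r = −0.69 (permutation p = 0.018, adjusted p = 0.217, with rho = −0.78), and −0.55 without ALDHbr 1 and ALDHbr 4. With total counts its r was 0.56 (permutation p = 0.0977, adjusted p = 0.305, with rho = 0.75), and 0.76 without ALDHbr 2 and ALDHdim 2.

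The genes most like 9 of the 10 are given by Pearson's r of log2 CPM over the 10 libraries. The search covered the tested genes, leaving out the 10 genes themselves and names of predicted genes, clones and pseudogenes. The values are a description, since the genes were picked as the highest of many and carry no test. Ces1d, a carboxylesterase, was the nearest to both Gstm1 (0.96) and Cat (0.97). Prdx6, a peroxiredoxin that reduces phospholipid peroxides, was nearest to Gsta3 (0.96), and Scgb3a1, a secretoglobin of airway epithelium, to Gsta4 (0.96). The nearest were Il18 to Mgst1 (0.94), Tspan1 to Gsto1 (0.89), Cby1 to Gpx1 (0.95), Xdh to Gpx3 (0.95) and Cdk8 to Sod3 (0.98).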

How the data were processed

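The authors deposited raw counts per gene for 33347 genes in 10 libraries, whole numbers without normalization. Per the labels' protocols the libraries were made by BRB-seq, with a UMI of 10 nt, a sample barcode of 9 nt and RNA reads of 81 nt. Per the submitters' processing notes, featureCounts 2.0.1, HISAT2 2.2.1, Trim Galore 0.6.7, DESeq2 and UMI-tools were used, in roles and an order that are not given, and the builds GRCm38 and GRCh38 are named. The sources used here do not give whether UMIs were collapsed. All 33347 gene identifiers were found in GENCODE M21 (GRCm38) on the same chromosome, and positions come from it.

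Genes were kept by filterByExpr (minimum count 10, 10844 genes, 97.3% of counts). After TMM scaling, edgeR 4.0.16 in R 4.3.3 gave the quasi-likelihood test (glmQLFit, glmQLFTest), adjusted by Benjamini-Hochberg over all genes tested. The log2 levels used a prior count of 2. Correlations used 100000 permutations (exact under 10 libraries), two-sided, adjusted within families of 150, 45 and 30. Alternatives included DESeq2 1.42.0 and limma 3.58.1. The code was tested on simulated data. Figures used matplotlib 3.10.9. The 10 genes, the marker and pathway lists and the tests were chosen with earlier results of these data known. Named are all 10 genes, the pathway gene of smallest p in each direction per list, and, per gene, the nearest of the 2 most correlated others, which for Gstp1 is not reported here. The rule allowed up to 3 pathway genes. The replicate numbers of both groups were not taken as pairs.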

Additional observations from a re-analysis of the deposited data

Results flagged for a closer look

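Within each group, the lowest and highest library were set against the others for the 10 genes, 12 pathway genes, 2 sums and 15 marker scores, 78 sets in all. In 2 sets a library lay far from the rest, where chance alone would mark 3.9, about 1 set in 20. Gstp1 was at 31.3 CPM in ALDHbr 2 and between 8.23 and 14.2 CPM in its group otherwise, a gap of 0.743 of the whole range. Gstp1 summed with its pseudogene was at 123 CPM in ALDHbr 2 and between 58.9 and 70.8 CPM in its group otherwise, a gap of 0.815 of the range. ALDHbr 2 is the library with the fewest counts, and the part of depth in this value was not tested.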

How the results depend on the processing

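The counts of 0 genes, 0 of the 10 genes and 0 pathway genes past the threshold held under each alternative run, except that the whole table gave 185 genes with no low-count filter, 182 of them higher. The median log2 fold change over all genes was 0.22 there and 0.28 with DESeq2, against 0.01. The fold changes of Gsta4, Gsto1, Gpx1 and Cat did not turn their sign but moved in size: with 1 library left out they ran from −0.31 to −0.016 for Gsta4, −0.27 to −0.049 for Gsto1, 0.17 to 0.29 for Gpx1 and −0.48 to −0.067 for Cat, and without both ALDHbr 3 and ALDHbr 5 they were −0.024, −0.091, 0.13 and −0.0010 in the same order. Signs turned for Gsta3 (−0.12 with limma-voom, −0.13 without both ALDHbr 2 and ALDHdim 2, −0.29 to 0.33 with 1 library left out), Gstm1 (0.24 without both ALDHbr 3 and ALDHbr 5, −0.48 to 0.098 with 1 left out), Gstp1 (−0.033 with no filter, −0.015 with limma-voom, −0.31 without ALDHbr 2 and ALDHdim 2, −0.27 to 0.21 with 1 left out) and Mgst1 (−0.094 with no filter, −0.0074 with DESeq2, −0.11 with limma-voom, −0.078 with the replicate block, −0.26 without ALDHbr 2 and ALDHdim 2, −0.29 to 0.11 with 1 left out). They also turned for Gpx3 (−0.029 to 0.20 with 1 left out), Sod3 (0.15 without both ALDHbr 3 and ALDHbr 5, −0.31 to 0.060 with 1 left out), Gpx4 (−0.0088 without both ALDHbr 3 and ALDHbr 5) and Atp7b (0.029 without both ALDHbr 3 and ALDHbr 5, −0.44 to 0.025 with 1 left out). The cause was not tested.

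Relations of the 10 genes with marker lists, 18 in all, numbered 3 with Spearman's rho, 2 without both ALDHbr 3 and ALDHbr 5, 0 without both ALDHbr 2 and ALDHdim 2, and 0 to 22 with 1 library left out. The 3 with rho were Cat and Gstm1 with alveolar macrophage markers and Gsta3 with adipocyte markers. Pairs of the 10 genes, 8 in all, numbered 13 with values centred within each group, 3 with rho, 5 without ALDHbr 3 and ALDHbr 5, 0 without ALDHbr 2 and ALDHdim 2, and 2 to 12 with 1 left out. Runs with fewer than 10 libraries used exact permutations, and the part of the smaller number of libraries in these counts was not tested. Leaving out ALDHbr 2 and ALDHdim 2, and summing Gstp1 with Gstp-ps, were chosen after seeing the data.

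The groups share replicate numbers. Libraries of the same number correlated in their deviations from the group mean with r of 0.06 to 0.37, number 1 lowest. ALDHbr 2, 3 and 5 and ALDHdim 1, 2, 3 and 4 correlated best with the library of their own number. ALDHbr 1 and 4 and ALDHdim 5 did not. Same-numbered libraries may thus share some structure, but the labels do not name them as pairs, and the main test did not pair them. With the replicate block, 0 genes passed the threshold. At an unadjusted p under 0.05 there were 727 of 10844 genes with the block, against 402 without it (edgeR). The smallest adjusted p was 0.730, against 0.999. Differences between same-numbered libraries gave 0 relations and 0 pairs with the replicate block. There 5 values allow so few permutations that no relation could pass the adjustment on its own, so these counts of 0 say little. Depth limits Gstp1 most, at 8 to 35 counts per library.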
